A study of Mus musculus with 24 samples.

Results

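The genes described here were 10 markers of hippocampal interneurons and neuropeptide precursors, namely Sst, Npy, Cck, Vip, Pvalb, Penk, Pdyn, Tac1, Crh and Nts. They were chosen by name, and all 10 were found among the 47593 genes of the count table. RNA of the hippocampus was sequenced from 24 male C57BL/6J mice aged 8 to 12 weeks, in 8 groups of 3. WT mice and conventional Tob-KO mice, which lack Tob in every tissue, were taken naive, or at 15 min, 1 h or 3 h from contextual fear conditioning, in which a tone and foot shocks were given in a new context. Each library came from 1 mouse, and p-values measure the spread between these mice.

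Inhibitory interneurons of the hippocampus release GABA and are sorted into classes by the proteins and peptides that they make. Parvalbumin cells contact the cell body and axon start of pyramidal cells, somatostatin cells contact distal dendrites, cholecystokinin cells form a second class of perisomatic cells, and many VIP cells inhibit other interneurons. Neuropeptides are cut from precursor proteins, packed into dense core granules and released during intense firing. Several of the peptide genes are known to respond to neuronal activity through cAMP signalling, and hippocampal Npy and Penk are known to be raised by seizures. Most of these genes are also transcribed outside interneurons: Cck in pyramidal cells, Penk and Pdyn in granule cells of the dentate gyrus, and Penk, Pdyn and Tac1 in the striatum.

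Levels are given as CPM, which are counts brought to the same library size, after TMM normalisation. The total count ranged from 28847989 to 41595972 per library (median 31169386), so that even Crh, with the fewest counts of the 10 genes, had 38 to 147 counts in every library and Sst had 3381 to 5627. Tob1, the targeted gene, was counted in every library and was higher in every library labelled Tob-KO (52.1 to 68.3 CPM) than in every WT library (33.9 to 44.5 CPM), with a log2 difference of 0.56 ± 0.037 (SE) over the 24 libraries (edgeR quasi-likelihood test, adjusted p = 1.17e-09). The table counts whole genes and does not separate the deleted part of Tob1. The counts went opposite to a loss of the whole gene, and they cannot show whether its deleted part was missing. Directions below are therefore those of the libraries labelled Tob-KO. Fos, an immediate early gene, rose by 2.09 on the log2 scale at 15 min (adjusted p = 8.75e-06, edgeR). Markers of the choroid plexus, the epithelium in the ventricle beside the hippocampus, divided the libraries: their summed level was 29.1 to 79.3 CPM in 10 libraries and 725 to 5070 CPM in 14, and all 3 WT libraries at 15 min were among the 10.

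For their transcript length, Sst and Cck were the most abundant of the 10 genes and Crh the least. Per kilobase of annotated exon (GENCODE, GRCm38), the median level over the 24 libraries was 187 CPM per kilobase for Sst, 126 for Cck, 39.7 for Npy, 22.5 for Pvalb, 12.6 for Penk, 5.48 for Nts, 5.28 for Vip, 4.04 for Pdyn, 2.28 for Tac1 and 1.89 for Crh. The first 4 places did not overlap: Sst was at 156 to 225 CPM per kilobase over the libraries, Cck at 112 to 143, Npy at 32.9 to 57.1 and Pvalb at 16.9 to 28.3. Pvalb overlapped with Penk (8.61 to 21.7 CPM per kilobase), whose lowest library was above the highest of Nts (2.87 to 8.30). From Nts down to Crh the ranges of neighbours overlapped, so their order was not settled by these libraries. On GRCm38 the genes are Sst (ENSMUSG00000004366.4, chr16:23889573-23890958), Npy (ENSMUSG00000029819.6, chr6:49822710-49829507), Cck (ENSMUSG00000032532.7, chr9:121489824-121495694), Vip (ENSMUSG00000019772.5, chr10:5639218-5647617) and Pvalb (ENSMUSG00000005716.16, chr15:78191114-78206400). The others are Penk (ENSMUSG00000045573.9, chr4:4133531-4138819), Pdyn (ENSMUSG00000027400.11, chr2:129686565-129699844), Tac1 (ENSMUSG00000061762.12, chr6:7554879-7565834), Crh (ENSMUSG00000049796.4, chr3:19693401-19695396) and Nts (ENSMUSG00000019890.4, chr10:102481756-102490486). Tissue RNA gives no count of cells, and fewer cells of a class and less RNA per cell cannot be told apart.

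The genes also differed in how steady they were from mouse to mouse. The spread between libraries beyond counting error came from the fit with genotype and time point as additive factors. This spread therefore also holds any difference between genotypes in the time course. Given as the biological coefficient of variation, it was 6.33% for Cck, 8.53% for Sst, 10.5% for Pvalb, 11.2% for Npy and 11.9% for Pdyn. It was 14.6% for Penk, 15.8% for Tac1, 17.1% for Vip, 22.4% for Crh and 24.5% for Nts, where the median of all genes tested was 9.46%. Cck and Sst were thus measured with a spread below that median, and a change in Nts or Crh had to be larger than one in Cck to stand out.

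**Figure D1:**
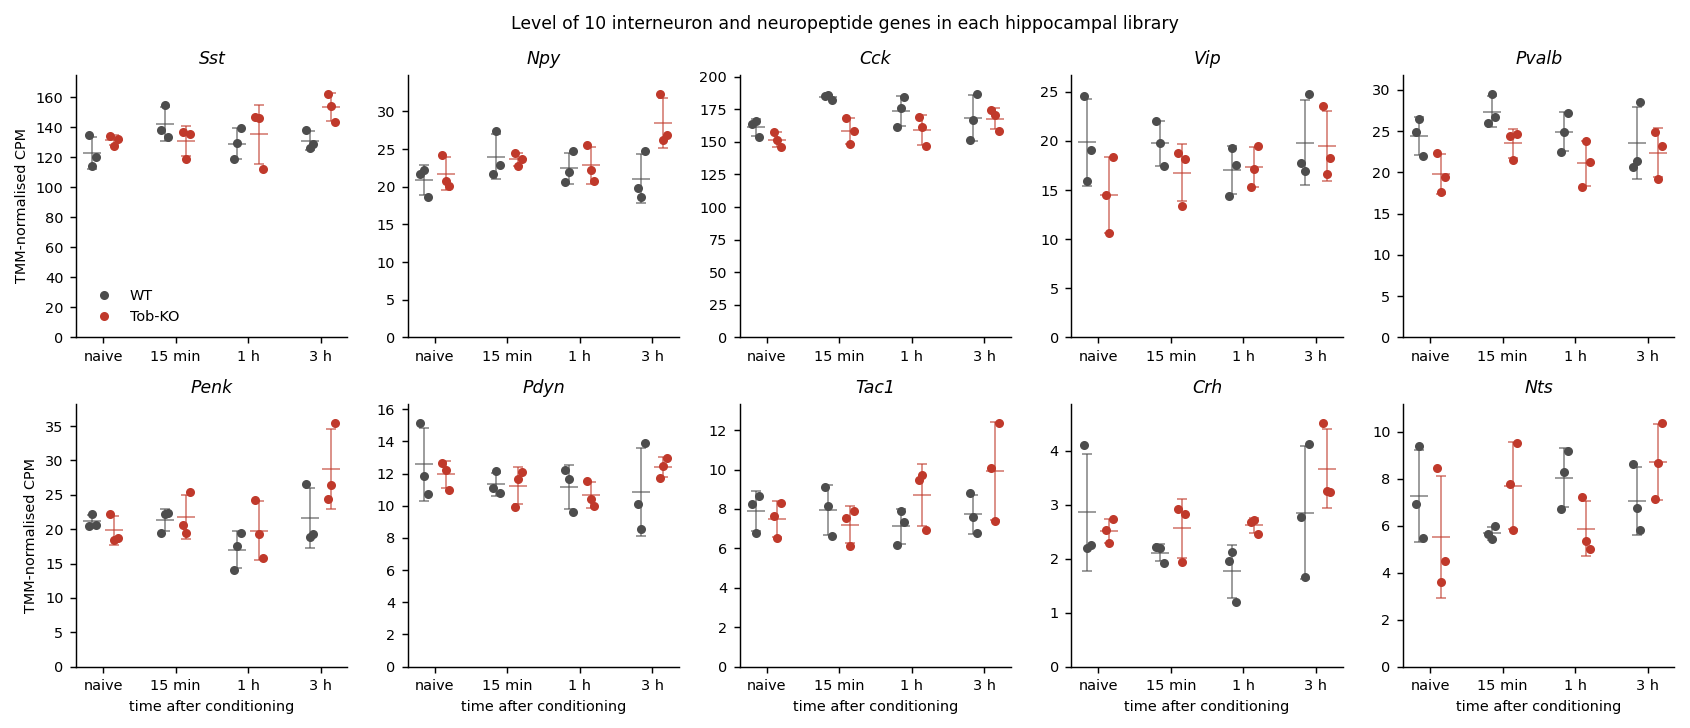
TMM-normalised CPM of the 10 genes (vertical axis, from 0) in each of the 24 libraries, by time point (horizontal axis), with WT in grey and libraries labelled Tob-KO in red; bars are the mean ± SD of 3 mice. Sst stays between 112 and 162 CPM and Nts between 3.58 and 10.4 CPM, and most pairs of groups overlap.

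Sst encodes somatostatin, and its promoter is the classic example of a cAMP response element (CRE), the palindrome TGACGTCA to which CREB binds. The RefSeq promoters of GRCm38.p6, 250 bases before to 50 after each start site, held entries for 8 of the 10 genes, 2 each for Pvalb and Pdyn. The full CRE, which reads the same on both strands, was found in 1 of the 8, Sst, and in 1.79% of all 32851 promoters. Its first base lay 48 bases before the RefSeq start site of Sst. Shorter matches, TGACG on either strand, which the full CRE also holds, were found in 5 of the 8 genes (Sst, Cck, Vip, Tac1 and Nts) and in 20.8% of all promoters. Windows of 30 bases around these matches are shown because cAMP signalling is one route by which activity is known to reach these genes, with the matching bases in capitals. Of the 2 matches in Tac1 the one nearer the RefSeq start site is shown. The windows of Sst and Tac1 lie inside the GENCODE coordinates given above, whose start sites differ from those of RefSeq.

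Sst, chr16:23890874-23890903, reverse strand: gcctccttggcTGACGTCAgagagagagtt
Cck, chr9:121495724-121495753, reverse strand: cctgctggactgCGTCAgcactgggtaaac
Vip, chr10:5639127-5639156, forward strand: ggatcactactgTGACGtctttcggggagc
Tac1, chr6:7555006-7555035, forward strand: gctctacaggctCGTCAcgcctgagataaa
Nts, chr10:102490567-102490596, reverse strand: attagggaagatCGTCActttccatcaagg

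A match describes the letters of the window and is not a measure of binding. No match was found in the windows of Npy, Pvalb and Pdyn.

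The first question was whether the interneuron genes differed between genotypes. Over all time points, 0 of the 10 genes passed the test between 12 libraries labelled Tob-KO and 12 WT libraries (edgeR quasi-likelihood test, Benjamini-Hochberg adjusted p of at most 0.05 over 19500 genes), where 0.462% of all genes did. Pvalb and Cck came nearest and were lower in libraries labelled Tob-KO, and the other 8 genes had differences whose 95% intervals held 0. The range over the 10 genes was -0.21 to 0.25 on the log2 scale, with a median of 0.04, and the median of all genes was -0.002.

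Pvalb encodes parvalbumin, the calcium-binding protein of fast-spiking basket and chandelier cells. The naive WT libraries held 24.9, 26.4 and 21.9 CPM of Pvalb and the naive libraries labelled Tob-KO 22.3, 17.6 and 19.5 CPM. At 15 min WT held 25.9, 29.5 and 26.7 CPM against 24.5, 21.4 and 24.6 CPM in Tob-KO, without overlap. The libraries at 1 h overlapped, with 22.5, 24.9 and 27.2 CPM in WT against 18.3, 23.8 and 21.2 CPM in Tob-KO. By 3 h the genotypes lay closest, with 20.6, 21.4 and 28.6 CPM in WT against 24.9, 19.2 and 23.1 CPM in Tob-KO. The mean over 12 mice was 25.1 ± 2.88 CPM (SD, n = 12) in WT and 21.7 ± 2.58 CPM (SD, n = 12) in Tob-KO. The log2 difference was -0.21 ± 0.062 (SE), with a 95% interval of -0.34 to -0.08, and missed the threshold (edgeR, adjusted p = 0.137). DESeq2 gave the same size of difference, -0.21, with an adjusted p of 0.0458, below 0.05, whereas the adjusted p lay between 0.0706 and 0.356 under the other alternatives. The highest of these came with the summed level of subiculum and cortex markers as a covariate, where the difference was -0.16, and with choroid plexus markers as the covariate it was -0.18.

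Cck encodes cholecystokinin, which marks a class of perisomatic interneurons and is also transcribed in pyramidal cells. Naive WT mice had 164, 166 and 154 CPM of Cck against 157, 152 and 146 CPM in Tob-KO. At 15 min the WT libraries were at 185, 186 and 182 CPM, all above the Tob-KO group with 168, 148 and 159 CPM. The 3 WT libraries at 15 min lay closer together than those of any other Cck group. At 1 h WT held 161, 176 and 184 CPM against 169, 162 and 147 CPM in Tob-KO. At 3 h the groups overlapped fully, with 152, 166 and 187 CPM in WT against 174, 171 and 159 CPM in Tob-KO. Over all time points the log2 difference was -0.11 ± 0.036 (SE), with a 95% interval of -0.18 to -0.04, which was not called (edgeR quasi-likelihood test, adjusted p = 0.174). On the linear scale the interval runs from 0.88 to 0.98 of the WT level. With the summed choroid plexus markers as a covariate the difference was -0.09 (adjusted p = 0.315, edgeR).

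The remaining 8 genes showed no difference that could be called over all time points. The log2 difference was 0.07 ± 0.049 (SE) for Sst, 0.12 ± 0.066 (SE) for Npy, -0.17 ± 0.10 (SE) for Vip and 0.14 ± 0.086 (SE) for Penk. It was 0.01 ± 0.071 (SE) for Pdyn, 0.11 ± 0.095 (SE) for Tac1, 0.25 ± 0.14 (SE) for Crh and -0.02 ± 0.15 (SE) for Nts. All 10 intervals lay within folds of 0.767 to 1.45, so a 2-fold difference lay outside the interval of each gene.

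**Figure D2:**
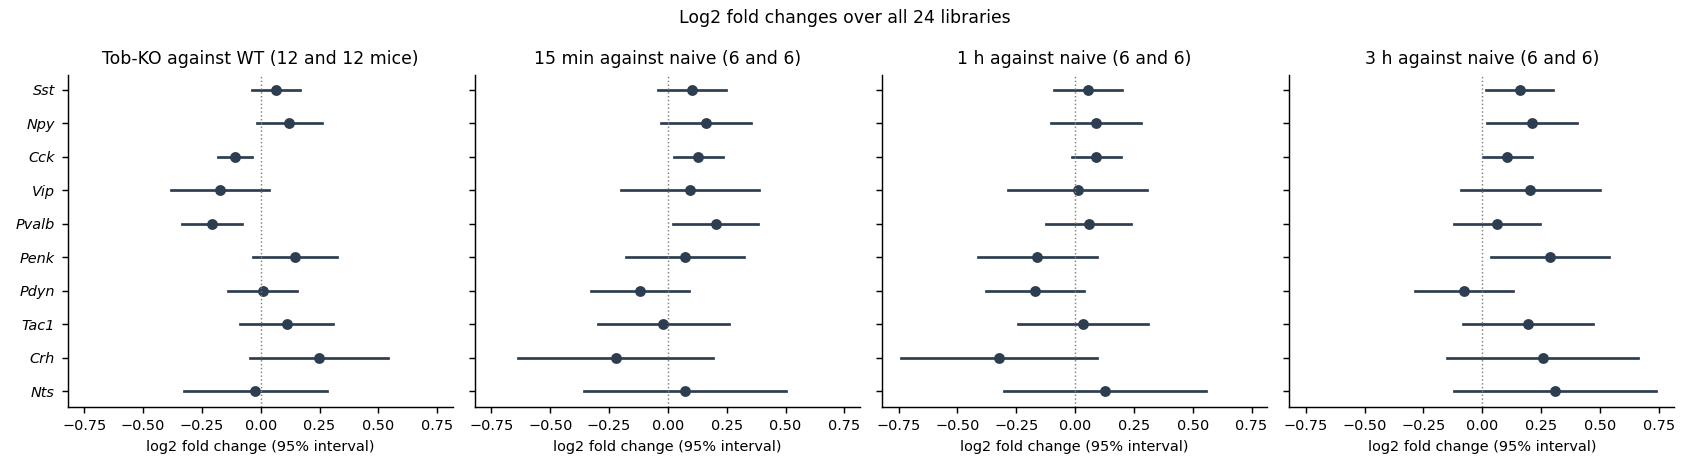
Log2 fold changes (horizontal axis, points) with 95% intervals (lines) of the 10 genes for Tob-KO against WT over 12 and 12 mice and for each time point against naive over 6 and 6 mice, from 1 edgeR quasi-likelihood fit of 24 libraries. The Pvalb and Cck intervals lie below 0 between genotypes, and at 3 h those of Sst, Npy, Cck and Penk lie above 0, though none of these passed after adjustment.

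At single time points, 3 libraries labelled Tob-KO were set against 3 WT libraries with edgeR's exact test, and a gene was called with an adjusted p up to 0.05 and at least a 2-fold change. None of the 10 genes was called at any of the 4 time points. The same limits called 0.0218% of all genes in naive mice, 0.555% at 15 min, 0.033% at 1 h and 0.0274% at 3 h.

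In naive mice the 10 genes ranged from -0.45 (Vip) to 0.10 (Sst) on the log2 scale, 8 of them lower in libraries labelled Tob-KO, and groups overlapped for all 10, where 11.4% of all genes did not overlap. Vip, which encodes vasoactive intestinal peptide, measured 24.6, 15.9 and 19.1 CPM in WT against 14.5, 10.6 and 18.4 CPM in Tob-KO. One Tob-KO library held less Vip than any other of the 24, and the 95% interval of the difference, -0.96 to 0.05, was wide. Pvalb differed by -0.30 (edgeR exact test, p = 0.0312, adjusted p = 1).

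At 15 min the groups did not overlap for 2 of the 10 genes, Cck and Pvalb, against 13.3% of all genes. The difference was -0.22 ± 0.057 (SE) for Cck (edgeR exact test, p = 0.00243, adjusted p = 0.152) and -0.22 ± 0.085 (SE) for Pvalb (p = 0.0362, adjusted p = 0.548). All 3 WT libraries at 15 min held little choroid plexus RNA, at 29.1 to 46.3 CPM of its summed markers against 67.1, 3457 and 1331 CPM in Tob-KO, and the part of this in both differences was not tested. Nts, the neurotensin precursor, measured 5.64, 5.42 and 5.96 CPM in WT against 7.76, 5.83 and 9.51 CPM in Tob-KO, a log2 difference of 0.44 (edgeR exact test, p = 0.0289, adjusted p = 0.503). Without Tob-KO replicate 3 the difference in Nts was 0.26, and this library also had the highest summed markers of septum (159 CPM) and of thalamus and habenula (110.4 CPM) of the 24.

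At 1 h the groups did not overlap for 1 of the 10 genes, Crh, against 11.5% of all genes. Crh encodes corticotropin-releasing hormone, the stress peptide that hippocampal interneurons also make. Crh measured 1.96, 2.12 and 1.20 CPM in WT against 2.67, 2.71 and 2.46 CPM in Tob-KO, a difference of 0.56 ± 0.21 (SE) on the log2 scale (edgeR exact test, p = 0.0173, adjusted p = 0.736). Without WT 1 h replicate 3, the library with the least Crh, the difference was 0.36. Nts now went the other way, with 6.70, 8.28 and 9.15 CPM in WT against 7.20, 5.36 and 5.02 CPM in Tob-KO, or -0.45 (edgeR exact test, p = 0.0130, adjusted p = 0.686). Without WT 1 h replicate 1, the lowest of its group, the difference in Nts was -0.57 and its adjusted p 0.0368, where the other alternatives gave 0.146 to 1; its fold stayed below 2, so it was not called. The sign of the Nts difference thus was not the same at neighbouring time points.

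At 3 h the groups did not overlap for 2 of the 10 genes, Sst and Npy, against 12.1% of all genes, and both were higher in libraries labelled Tob-KO. Sst measured 138, 126 and 129 CPM in WT against 162, 154 and 144 CPM in Tob-KO, a log2 difference of 0.22 ± 0.053 (SE) (edgeR exact test, p = 8.56e-04, adjusted p = 0.260). Npy encodes neuropeptide Y, which many somatostatin cells also make. Npy measured 19.9, 18.6 and 24.7 CPM in WT against 32.3, 26.2 and 26.8 CPM in Tob-KO, a difference of 0.43 ± 0.12 (SE) (edgeR exact test, p = 0.00194, adjusted p = 0.380). A single WT library, replicate 3, held more Npy than the other WT libraries at 3 h. Without it the difference was 0.56 with an adjusted p of 0.0126, and the fold stayed below 2, while the other alternatives gave adjusted p-values from 0.14 to 1. Penk, the precursor of the enkephalins, measured 26.6, 18.9 and 19.3 CPM in WT against 24.5, 26.5 and 35.4 CPM in Tob-KO, a difference of 0.41 (edgeR exact test, p = 0.0260, adjusted p = 1). Without Tob-KO replicate 3, the highest library, the difference in Penk was 0.24. Over the 10 genes, 7 were higher in libraries labelled Tob-KO at 3 h, with a median of 0.26 against -0.002 for all genes. Choroid plexus markers were abundant in 2 of the 3 WT libraries and in 1 of the 3 Tob-KO libraries at this time point, and their part in these differences was not tested.

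**Figure D3:**
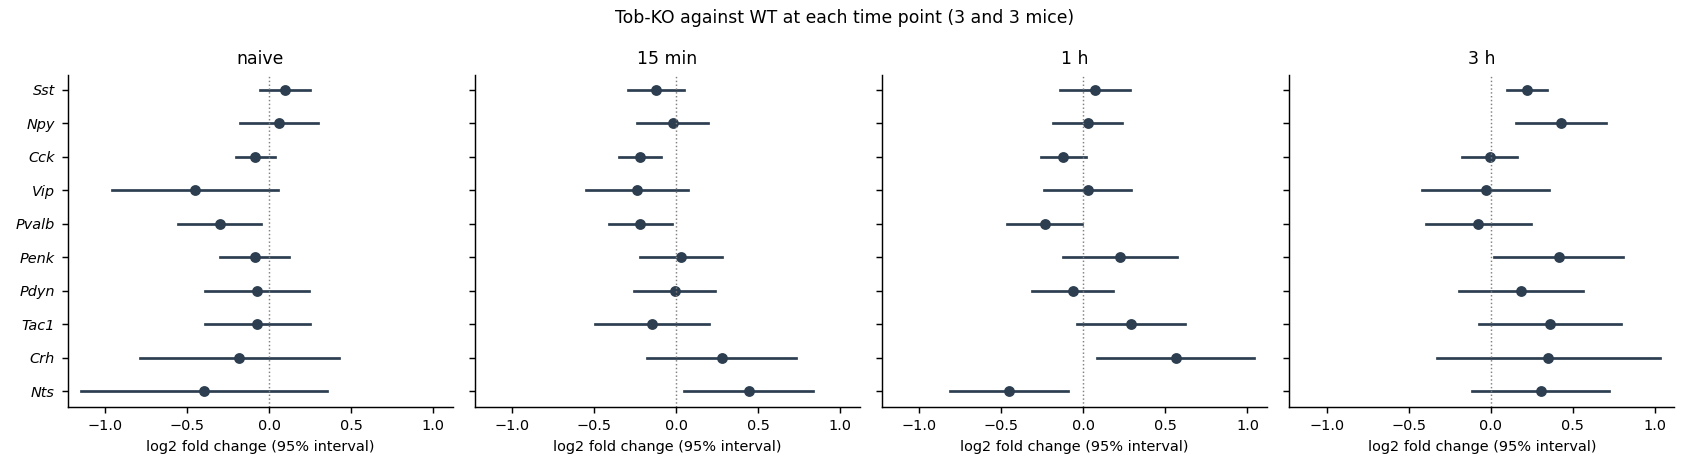
Log2 fold changes (points) with 95% intervals (lines) of libraries labelled Tob-KO against WT for the 10 genes, in a panel for each of the 4 time points, over 3 and 3 mice each. Differences range from -0.45 (Vip, naive, and Nts, 1 h) to 0.56 (Crh, 1 h). The widest intervals are those of Nts in naive mice (-1.15 to 0.36) and Crh at 3 h (-0.33 to 1.03).

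The second question was whether these genes changed after conditioning. In 1 fit of the 24 libraries, each time point was compared with naive mice over 6 and 6 libraries with genotype as a factor, and the 3 comparisons share the naive libraries. None of the 10 genes passed at any time point (edgeR quasi-likelihood test), where 4.7% of all genes did at 15 min, 6.15% at 1 h and 0% at 3 h. As a comparison within the same libraries, all 12 activity-induced genes of a list with Fos, Arc and Egr1 rose at 15 min, by 0.69 (Egr4) to 2.66 (Egr2) on the log2 scale. At 1 h 8 of the 12 were still called higher, and at 3 h none was called.

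At 15 min the 10 genes ranged from -0.22 (Crh) to 0.20 (Pvalb), with 7 of the 10 higher. Cck differed by 0.13 ± 0.050 (SE) (edgeR, adjusted p = 0.140) and Pvalb by 0.20 ± 0.087 (SE) (adjusted p = 0.184). With the choroid plexus markers as a covariate these were 0.09 for Cck and 0.17 for Pvalb. Within WT, Cck was the only one of the 10 genes without overlap between 15 min (185, 186 and 182 CPM) and naive mice (164, 166 and 154 CPM), against 10.6% of all genes. Within Tob-KO all 10 overlapped, against 19.2% of all genes. Sst, with its full CRE, differed by 0.10 ± 0.069 (SE) (adjusted p = 0.435, edgeR).

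The same 8 letters stood in the promoters of some genes that rose and of some that were not called. Among the 9 activity-induced genes with a RefSeq promoter, Btg2, an antiproliferative gene of the family that also holds Tob1, and Dusp1, a MAP kinase phosphatase, held the full CRE. Of 11 genes of precursor processing and granules with a promoter, 3 held it, namely Chgb, Scg2 and Pcsk1, the protease that cuts many peptide precursors. The windows of Btg2, Dusp1 and Pcsk1 are shown for comparison with that of Sst.

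Btg2, chr1:134079303-134079332, reverse strand: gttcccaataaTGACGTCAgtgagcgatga
Dusp1, chr17:26508597-26508626, reverse strand: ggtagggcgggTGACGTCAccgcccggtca
Pcsk1, chr13:75089768-75089797, forward strand: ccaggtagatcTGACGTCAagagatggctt

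The first base of the element lay 166 bases before the start site in Btg2, 143 in Dusp1 and 78 in Pcsk1. At 15 min Btg2 rose by 1.21 (adjusted p = 1.02e-07, edgeR) and Dusp1 by 1.12 (adjusted p = 9.84e-04) on the log2 scale, while the log2 difference in Pcsk1 was 0.04 ± 0.14 (SE) (adjusted p = 0.919). It was -0.01 ± 0.052 (SE) for Chgb, which encodes chromogranin B, and -0.04 ± 0.054 (SE) for Scg2, and neither was called.

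At 1 h the 10 genes ranged from -0.32 (Crh) to 0.13 (Nts), and none had an unadjusted p under 0.05. Within WT, Penk and Crh were lower at 1 h than in naive mice without overlap, against 8.57% of all genes (16.1% in either direction). Penk was at 14.1, 17.5 and 19.4 CPM at 1 h and 20.5, 22.2 and 20.7 CPM in naive WT mice. Crh was at 1.96, 2.12 and 1.20 CPM at 1 h and 4.11, 2.19 and 2.26 CPM in naive WT mice, where 1 library stood above the other two. Within Tob-KO 0 of the 10 genes were free of overlap, against 20.7% of all genes.

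By 3 h, 9 of the 10 genes were higher than in naive mice, with Pdyn (-0.08) as the exception, and the median over the 10 was 0.20 on the log2 scale, where that of all genes was -0.01. The difference was 0.16 ± 0.069 (SE) for Sst (adjusted p = 0.508), 0.21 ± 0.093 (SE) for Npy (adjusted p = 0.513), 0.11 ± 0.050 (SE) for Cck (adjusted p = 0.547) and 0.29 ± 0.12 (SE) for Penk (adjusted p = 0.498, edgeR quasi-likelihood test). None passed after adjustment. Without Tob-KO 3 h replicate 1 the difference in Npy was 0.14, and without Tob-KO 3 h replicate 3 that in Penk was 0.19. Over all genes 0 were called at 3 h by edgeR and 4 by DESeq2, and 9.05% (1765) had an unadjusted p under 0.05.

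Within Tob-KO, 5 of the 10 genes (Sst, Npy, Cck, Penk and Crh) were higher at 3 h than in naive mice without overlap. Of all genes 7.52% were higher in this way, and 14.9% did not overlap in either direction. Within WT 0 of the 10 genes were free of overlap at 3 h, against 9.39% of all genes in either direction. Naive Tob-KO mice had 134, 128 and 132 CPM of Sst, below all 3 Tob-KO libraries at 3 h. Naive WT mice had 135, 114 and 120.3 CPM, and the highest of these lay among the WT libraries at 3 h. For Npy, naive Tob-KO mice had 24.2, 20.8 and 20.1 CPM, again below the 3 h group, while the naive WT values of 21.7, 22.3 and 18.6 CPM overlapped with those of WT at 3 h. The naive Tob-KO libraries held 22.2, 18.5 and 18.8 CPM of Penk, and those at 3 h lay above them. Cck separated narrowly, its highest naive Tob-KO library being at 157 CPM and its lowest at 3 h at 159 CPM. Crh, the scarcest of the 5, went from 2.52, 2.29 and 2.74 CPM in naive Tob-KO mice to 4.51, 3.25 and 3.22 CPM at 3 h.

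Whether the time course differed between genotypes was tested directly. Of the 10 genes, 0 passed the test of the 3 interaction terms (edgeR quasi-likelihood F test), and 0% of all genes did, 797 of 19500 having an unadjusted p under 0.05. Npy and Nts were among these 797, both with an adjusted p of 0.953 (edgeR). A difference between the genotypes in the change to 3 h was thus not shown for Sst, Npy, Cck, Penk or Crh.

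**Figure D4:**
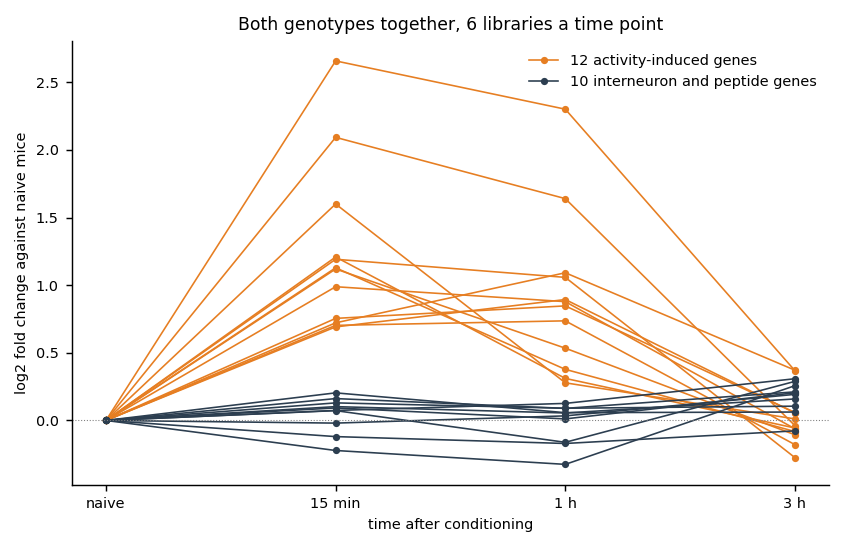
Log2 fold change against naive mice (vertical axis) by time after conditioning (horizontal axis) for the 10 interneuron and peptide genes (dark) and 12 activity-induced genes (orange), both genotypes together, 6 libraries a time point. The activity-induced genes peak at 15 min or 1 h and reach 2.66 (Egr2), while the 10 genes stay between -0.32 and 0.31 at all 3 time points.

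The machinery that makes, stores and reads the peptides was described from lists of genes. Of 13 genes for precursor processing and granules, 0 were called between genotypes over all time points or at any time point against naive mice by edgeR, and 0 at single time points. The smallest p-values between genotypes were those of the 7B2 chaperone gene Scg5 (-0.11; adjusted p = 0.134), carboxypeptidase E (Cpe, -0.06; adjusted p = 0.278) and secretogranin II (Scg2, 0.09; adjusted p = 0.284). At 15 min the nearest to the threshold was secretogranin III (Scg3, 0.13; adjusted p = 0.0573, edgeR), and the median of the list was 0.05 against 0.003 for all genes.

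Of 22 peptide receptors, 0 were called over all time points between genotypes or against naive mice. The neurotensin receptor Ntsr2, a receptor of astrocytes in brain, had a log2 difference of -0.15 ± 0.037 (SE) in libraries labelled Tob-KO and missed the threshold (edgeR, adjusted p = 0.0619), and the NPY receptor Npy2r differed by 0.25 ± 0.079 (SE) (adjusted p = 0.166). At single time points Crhr2, a receptor of the CRH family that the choroid plexus also transcribes, was the only receptor called, at 15 min, with a log2 difference of 1.45 in Tob-KO (edgeR exact test, p = 8.22e-07, adjusted p = 9.82e-04). All 13 choroid plexus markers were called higher in the same comparison, edgeR's quasi-likelihood test called 0 genes in it, and the part of the choroid plexus in the Crhr2 difference was not tested. Its ligand gene Crh differed by 0.28 ± 0.20 (SE) at that time point (edgeR exact test, p = 0.248, adjusted p = 0.942).

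Among 12 other peptide genes, 11 were abundant enough to be tested over the 24 libraries and 0 passed in any of the comparisons. The smallest p-values between genotypes were those of galanin (Gal, 0.91; adjusted p = 0.0638), which was below 1 CPM in every library, gastrin-releasing peptide (Grp, -0.22; adjusted p = 0.204), prepronociceptin (Pnoc, 0.21; adjusted p = 0.225) and the CRH-binding protein (Crhbp, 0.11; adjusted p = 0.284), by edgeR. Crhbp was also the nearest to the threshold at 3 h, at 0.18 ± 0.065 (SE) (adjusted p = 0.471, edgeR).

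Genes of GABA synthesis and interneuron identity are shared by several of the classes. Of these 20 genes, 0 were called between genotypes over all time points. At 15 min against naive mice 1 of the 20, Sox6, was called, where 4.7% of all genes were. Sox6, a transcription factor of parvalbumin and somatostatin interneurons that glial precursors also express, rose by 0.24 ± 0.061 (SE) (edgeR, adjusted p = 0.0251). Lhx6, the factor of the same interneuron lineages, came nearest at 3 h, with 0.22 ± 0.063 (SE) (adjusted p = 0.404). The list's median log2 difference was 0.03 between genotypes over all time points and -0.01 at 3 h against naive mice. At single time points the median difference between genotypes was -0.02 in naive mice, 0.17 at 15 min, -0.13 at 1 h and 0.05 at 3 h, and 0 of the 20 were called at any of them by edgeR's exact test. At 15 min 9 of the 20 had an unadjusted p under 0.05, against 8.05% of all genes. The lowest adjusted p was 0.161 (edgeR exact test). Among the 9 were Gad1 and Gad2, the GABA-synthesizing enzymes, with 0.22 ± 0.067 (SE) and 0.32 ± 0.10 (SE). The 20 genes summed to 1714 CPM in Tob-KO 15 min replicate 3 and to 1416 to 1544 CPM in the other 15 min libraries. That replicate also had the highest sums of septal and of thalamus and habenula markers of the 24 libraries. The part of these tissues in the GABA gene differences was not tested. At 1 h 5 of the 20 had an unadjusted p under 0.05, against 5.34% of all genes. The vesicular GABA transporter Slc32a1 came nearest at 1 h, with -0.27 ± 0.060 (SE) (adjusted p = 0.0805, edgeR). Of 13 further class markers, 0 were called in either set, and Ndnf, a gene of neurogliaform cells, came nearest between genotypes with 0.13 ± 0.052 (SE) (adjusted p = 0.262, edgeR).

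The genes also varied together between mice of the same group. For each gene the log2 level was taken as its deviation from the mean of its group, and Pearson's r was computed over the 24 libraries as a description; genes of a library share its depth and its dissection. Of the 45 pairs of the 10 genes, 11 had an r above 0.5. The highest were 0.75 for Penk and Nts, 0.74 for Npy and Cck, 0.69 for Pdyn and Crh, 0.66 for Vip and Crh and 0.66 for Npy and Pvalb. Sst and Tac1 had an r of 0.53, which was 0.89 over the 14 libraries with abundant choroid plexus markers and -0.06 over the other 10.

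Vip moved with markers of the tissue that borders the hippocampus. The r between Vip and the summed level of 8 markers of the subiculum and neighbouring cortex was 0.84, 0.87 in the 14 libraries with abundant choroid plexus markers and 0.71 in the other 10. Tob-KO naive replicate 2 had the lowest Vip, at 10.6 CPM, and the lowest marker sum, at 235 CPM. WT 3 h replicate 3 and WT naive replicate 1 had the highest Vip, 24.8 and 24.6 CPM, with sums of 434 and 435 CPM. The 3 genes most like Vip were Hivep1, Garnl3 and Rasgef1b, each with an r of 0.94. Vip also moved against summed markers of CA2 and CA3, with an r of -0.83 (-0.90 in the 14 libraries and -0.53 in the other 10). Its r was -0.64 with markers of hippocampal excitatory neurons, -0.60 with dentate gyrus, 0.09 with CA1 and 0.55 with activity-induced genes. Of the 8 cortex markers Rorb, a gene of cortical layer 4, rose at 15 min by 0.48 and at 1 h by 0.39 (edgeR, adjusted p = 0.00899 and 0.0211). No other of the 8 was called in the comparisons over all 24 libraries. Of all genes, 4.7% were called at 15 min and 6.15% at 1 h. The part of these markers in the differences of Vip was not tested.

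Penk, Tac1 and Nts moved with the GABA genes. The r with the summed level of the 20 genes of GABA synthesis and interneuron identity was 0.77 for Penk, 0.77 for Tac1 and 0.67 for Nts, which was 0.81, 0.73 and 0.85 in the 14 libraries with abundant choroid plexus markers and 0.82, 0.82 and 0.51 in the other 10. Tob-KO 3 h replicate 3 had the highest Penk (35.4 CPM), Tac1 (12.4 CPM) and Nts (10.4 CPM) of the 24 libraries. It also had the highest GABA sum (1739 CPM). Its Drd2, 1 of 9 markers of striatal neurons, was at 4.94 CPM where the median of the 24 libraries was 2.59 CPM. The 9 markers together summed to 217 CPM in this library, with a median of 197 CPM and a range of 173 to 227 CPM over the 24. Summed striatal markers had an r of -0.16 with Penk, 0.10 with Tac1 and -0.47 with Nts. Summed septal markers had an r of 0.47 with Penk, 0.16 with Tac1 and 0.43 with Nts, and markers of thalamus and habenula one of 0.40, 0.38 and 0.53. Over the 10 libraries with few choroid plexus markers, r with thalamus and habenula was 0.76 for Penk, 0.71 for Tac1 and 0.54 for Nts. With summed dentate gyrus markers r was -0.19 for Penk, -0.69 for Tac1 and -0.16 for Nts over the 24 libraries. With markers of hippocampal excitatory neurons it was -0.12, -0.64 and -0.12 in the same order, and with subiculum and cortex markers -0.15, 0.49 and -0.01. The part of these tissues in the differences of Penk, Tac1 and Nts was not tested. Genes most like Tac1 included Fam20c (r = 0.90) and Gtpbp6 (0.85). Tob-KO 3 h replicate 3 is the library without which the Penk differences at 3 h were smaller, as given with them.

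**Figure D5:**
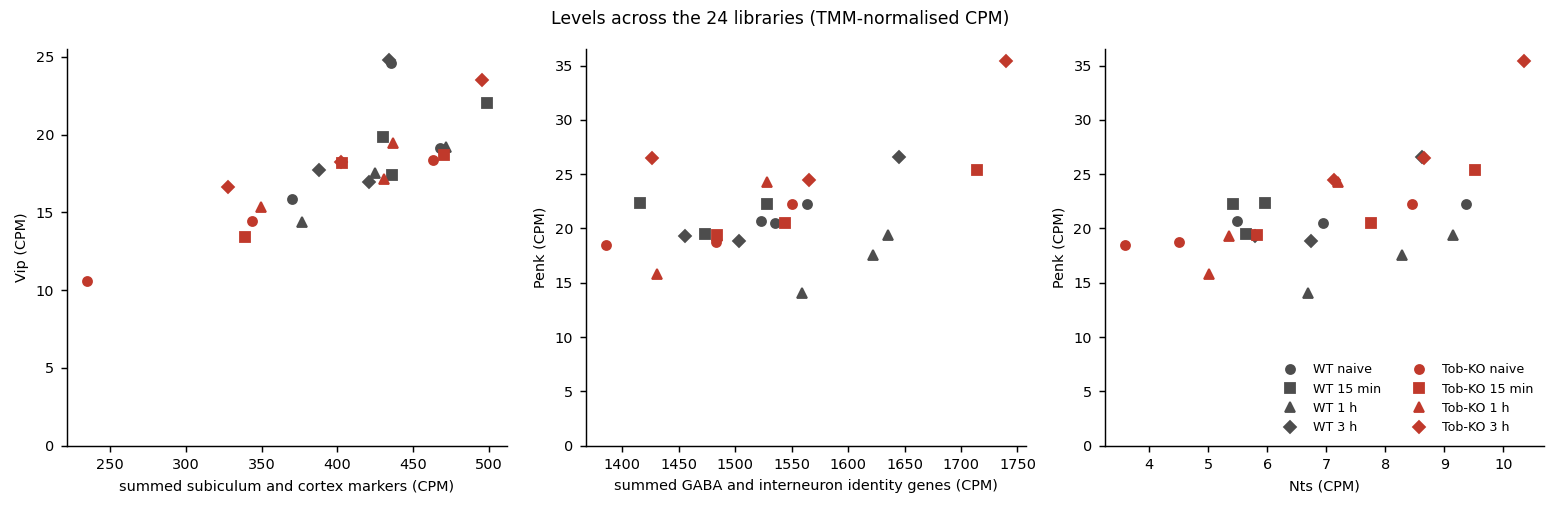
Levels in the 24 libraries (CPM), with Vip against the summed markers of subiculum and cortex on the left, Penk against the summed genes of GABA synthesis and interneuron identity in the middle and Penk against Nts on the right; colours give the genotype and symbols the time point. Vip climbs with the marker sum from 10.6 CPM at a sum of 235 CPM, and 1 library labelled Tob-KO at 3 h holds the highest Penk, 35.4 CPM.

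The other genes had their own neighbours. Sst was most like Ramp1 (r = 0.87), Rnf187 and Pcsk1n (both 0.85), and Pcsk1n encodes proSAAS, an inhibitor of the protease that Pcsk1 encodes. Npy was most like Mrpl12 and Polr2j (both 0.84) and Ntan1 (0.82), and Cck was most like Ttll11 (0.89), Med10 (0.86) and Bap1 (0.85). Pvalb was most like Tmem192 (0.88), Lynx1 (0.87) and Nat8l (0.84). Lynx1 encodes a modulator of nicotinic receptors that parvalbumin cells express. Penk was most like B630019K06Rik, Dgkk (both 0.86) and Zcchc12 (0.85), and Pdyn was most like Eif2s2 (0.81), Nkd1 (0.80) and 2810025M15Rik (0.77). Nts was most like Inpp5f (0.80), Oprk1, the kappa opioid receptor, and Zfp92 (both 0.78), and Crh was most like Tbx2 (0.83), Ier2 and Rspo1 (both 0.82). These are the highest of 14449 genes compared with each member and carry no test.

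The hypothalamus is rich in several of these peptides. Its defining markers Hcrt, Pmch, Avp, Oxt and Agrp were all below 1 CPM in every library. The remaining marker, Pomc, was at 0.530 to 1.44 CPM, and the 6 markers summed to 0.842 to 1.76 CPM. The hippocampus itself was well marked, with Prox1 of granule cells at 83.2 to 149 CPM and Wfs1 of CA1 at 131 to 194 CPM over the 24 libraries. Gad1, of GABA neurons in general, was at 332 to 428 CPM.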

How the data were processed

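The authors sequenced poly(A) RNA from directional libraries (150-bp paired-end reads, 8 PCR cycles), mapped reads to GRCm38 with STAR 2.6.1d in nf-core/rnaseq and counted them on genes with HTSeq 0.9.0. The deposited values were raw counts per gene and library; their column names say that duplicates were marked in the alignments, and whether marked reads were counted, the annotation release and the strand setting are not given in the sources used here. No molecular identifiers were used, so reads that PCR copied cannot be told from separate molecules.

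Analyses ran in R 4.3.3 with edgeR 4.0.16. Counts were scaled by TMM and passed a filter of 0.2 CPM in 2 libraries. Genotypes at 1 time point were compared with the exact test and the study's limits (FDR and p of at most 0.05, fold change of at least 2), with standard errors from the quasi-likelihood fit; other comparisons used the quasi-likelihood test on 24 libraries with an FDR limit alone. Scripts were tested on simulated data. Alternatives were the quasi-likelihood test, DESeq2 1.42.0, other size factors, no filter, a shared dispersion, a replicate block and leaving out each library; the 2 marker covariates were chosen after seeing the data. The genes and lists were chosen with earlier results of these data known. The text names the 10 genes, called members of each list or the up to 4 with the smallest p-values, and for each of the 10 genes the 3 most correlated genes. One gene that this rule names is not reported here. No pair of libraries of 1 group agreed within counting noise (chi-square per degree of freedom 3.68 to 22.8 over 24 pairs). Promoter sequences and start sites come from RefSeq (GRCm38.p6), and gene coordinates and exon lengths from GENCODE (GRCm38).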

Additional observations from a re-analysis of the deposited data

How the results depend on the processing

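The differences of the 10 genes with an unadjusted p under 0.05, which leaves out all those of Vip, Pdyn and Tac1, gave 360 log2 values under alternatives: 359 kept their direction and their side of the threshold, 0 reversed and 1 passed it, Pvalb between genotypes by DESeq2 (-0.21). Being chosen by their p, they say nothing of the other differences. At single time points a call also needed a 2-fold change, and the largest leave-one-out difference there was 0.72 (Crh, 1 h). Differences of that size could not be called there, whatever their adjusted p. In the main fits at single time points the adjusted p alone also left all 10 genes uncalled. Its lowest value was 0.152 (Cck, 15 min, edgeR exact test). Over all 10 genes, 196 fits were made under the alternatives and 1, that of Pvalb, called any of the 10. Without the fold limit, 3 of the 196 fits held a gene with an adjusted p under 0.05. These were Pvalb by DESeq2 and, each without 1 WT library, Nts at 1 h and Npy at 3 h. Levels scaled by library size alone moved by over 1 SD in 0 groups. Crh had the fewest counts per library (38 to 147).

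Counts of called genes over the whole table moved more. Between genotypes, the quasi-likelihood test called 1 gene in naive mice, 0 at 15 min, 0 at 1 h and 1 at 3 h, against 4, 102, 6 and 5 by the exact test; dispersion from all 24 libraries gave 16 at 15 min (8 higher, 8 lower, against 84 and 18) and 1 at 1 h; DESeq2 gave 35 at 15 min, 2 at 3 h, 292 over all time points (main 90) and 4 at 3 h against naive (main 0). The covariate of cortex markers, chosen after seeing the data, gave 43 over all time points. Without a filter 1 gene was called for the interaction (main 0). The cause of these shifts was not tested.

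Leaving out 1 library gave 4 to 53 calls in naive mice, 30 to 252 at 15 min (highest without Tob-KO replicate 1), 4 to 155 at 1 h (highest without WT replicate 1), 3 to 16 at 3 h, 41 to 141 over all time points, 366 to 1623 at 15 min against naive (highest without WT naive replicate 1), 670 to 1320 at 1 h and 0 to 0 at 3 h against naive, and 0 to 1 for the interaction.

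Replicate numbers share no animal, and deviations of same-numbered libraries had mean correlations of -0.214 to 0.245 over 28 pairs of groups, so they were not taken as pairs. With a replicate block, calls between genotypes were 1 in naive mice, 6 at 15 min, 0 at 1 h and 0 at 3 h, and 0 of the 10 genes were called.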
